A study of Homo sapiens with 3 samples.

Results

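Cells with high APOA4 within the Caco-2 side of a Caco-2/HT29 co-culture are described here from single-cell RNA of 3 libraries. Both are human colorectal carcinoma lines, and Caco-2 is the one known for forming a polarised, enterocyte-like sheet. On day 23, cells were taken from Transwell inserts whose apical side had received a 9:1 mix of Caco-2 (passage 8) and HT29 (passage 13). The 2 control libraries, control 1 and control 2, came from untreated co-cultures, and the LPS library came from a co-culture given 1 ng/ml lipopolysaccharide of Escherichia coli O111:B4 apically on day 22 for 24 h. Every library holds both lines, with no sort and no tag for the line, and cells were frozen and thawed before capture. Cells of 1 library share its culture and its preparation, so differences between conditions rest on 2 libraries against 1.

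Members were chosen by measured values. A barcode was kept with at least 1500 UMIs (unique molecular identifiers, each marking 1 captured RNA molecule), at least 700 genes and at most 20% mitochondrial UMIs. Cells in which LYZ, KRT20, LCN2, CD24, CD44, CST6, TCN1 and BMP4, genes high in HT29, together made up less than 0.1% of UMIs were taken as the Caco-2 side, and those with at least 0.2% of UMIs on APOA4 were the members. This gave 2110 APOA4-high cells of 19144 deposited barcodes, 15560 kept cells and 12734 cells under the HT29 gene limit, and the 10624 remaining cells under that limit served as the comparison ("other cells"). A further 395 cells with at least 0.5% of UMIs on the 8 HT29 genes ("HT29-side cells") are given beside them. Free RNA was not estimated, so UMIs of a Caco-2 gene in those cells may be free RNA or their own transcripts. APOA4 and the HT29 genes of the rule were not tested.

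APOA4 encodes an apolipoprotein of chylomicrons, the lipoprotein particles in which enterocytes of the small intestine export absorbed dietary fat. In the intestine, enterocytes leave the dividing crypt compartment, stop cycling and gain a brush border of microvilli with digestive hydrolases and nutrient transporters as they move up the villus. The other genes that mark the label are FABP2, a fatty acid binding protein of enterocytes, S100G, the calcium binding protein calbindin-D9k, SLC2A5, the fructose transporter GLUT5, CUBN, the endocytic receptor cubilin, GSTA1, a glutathione transferase, and RNF186, an intestinal ubiquitin ligase.

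Start sites are shown for FABP2 and CUBN, the 2 of these genes that held a match to a short motif of the GATA factors. All 7 marker genes matched an entry of the RefSeq promoter table (GRCh38.p14, 250 bases before to 50 bases after the gene's start). Capitals mark a match to the GATA motif AGATAA. FABP2 lies at chr4:119322089-119322388 on the minus strand and CUBN at chr10:17129762-17130061 on the minus strand, and each sequence runs 5′ to 3′ along the gene.
FABP2: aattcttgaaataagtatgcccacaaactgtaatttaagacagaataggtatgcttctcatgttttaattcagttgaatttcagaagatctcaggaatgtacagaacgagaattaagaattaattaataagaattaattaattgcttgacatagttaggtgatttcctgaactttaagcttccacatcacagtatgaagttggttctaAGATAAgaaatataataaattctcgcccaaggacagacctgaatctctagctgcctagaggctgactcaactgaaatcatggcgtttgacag
CUBN: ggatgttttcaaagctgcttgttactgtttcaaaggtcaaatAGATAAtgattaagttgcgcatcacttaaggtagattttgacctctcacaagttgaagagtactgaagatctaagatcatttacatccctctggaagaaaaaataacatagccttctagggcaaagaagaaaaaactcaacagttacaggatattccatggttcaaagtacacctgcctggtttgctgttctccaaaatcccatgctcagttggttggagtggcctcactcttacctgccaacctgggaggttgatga

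The GATA match started 42 bases before the gene's start in FABP2 and 208 bases before it in CUBN. The other 5 marker genes held no such match in their windows. Another motif searched, GTTAAT of the HNF1 factors, matched in GSTA1 and RNF186, whose sequences are not shown. Both strands were searched. Among 35116 promoters of the same length, AGATAA occurred in 10.3% and GTTAAT in 6.88%. A match is a description of letters, and binding was not measured here.

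APOA4-high cells made up 18.9% of the cells under the HT29 gene limit in control 1 (809 of 4289 cells, exact binomial 95% interval 17.7 to 20.1%). In control 2 they were 14.9% (628 of 4216, interval 13.8 to 16.0%) and in the LPS library 15.9% (673 of 4229, interval 14.8 to 17.1%). The LPS share lay between those of the controls, whose mean was 16.9% ± 2.80 (SD, n = 2), and with 1 LPS library the difference was not tested. Intervals cover counting error only, and the controls' own intervals did not overlap.

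The cut at 0.2% did not fall in a gap of the APOA4 distribution. The median APOA4 share of members was 0.564% in control 1, 0.506% in control 2 and 0.548% in the LPS library, with highest values of 6.70, 6.85 and 5.54%. Just inside the cut, from 0.2 to 0.25%, lay 68, 85 and 89 cells, with a median of 11.5, 9 and 9 APOA4 UMIs. Just outside it, from 0.15 to 0.2%, lay 115, 96 and 77 cells, with a median of 10, 7 and 6 APOA4 UMIs. The APOA4-high cells are therefore a range of a graded readout. Summed over cells, APOA4 stood at 7322, 7067 and 7346 CPM (UMIs of a gene scaled to the same total for each sum of cells) in members, at 224, 173 and 173 CPM in other cells and at 8.16, 43.0 and 29.2 CPM in HT29-side cells of control 1, control 2 and the LPS library. None of the 395 HT29-side cells reached 0.2%, while 25, 27 and 25 cells with 0.1 to 0.5% of UMIs on the HT29 genes did and were left out by the rule.

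**Figure D1:**
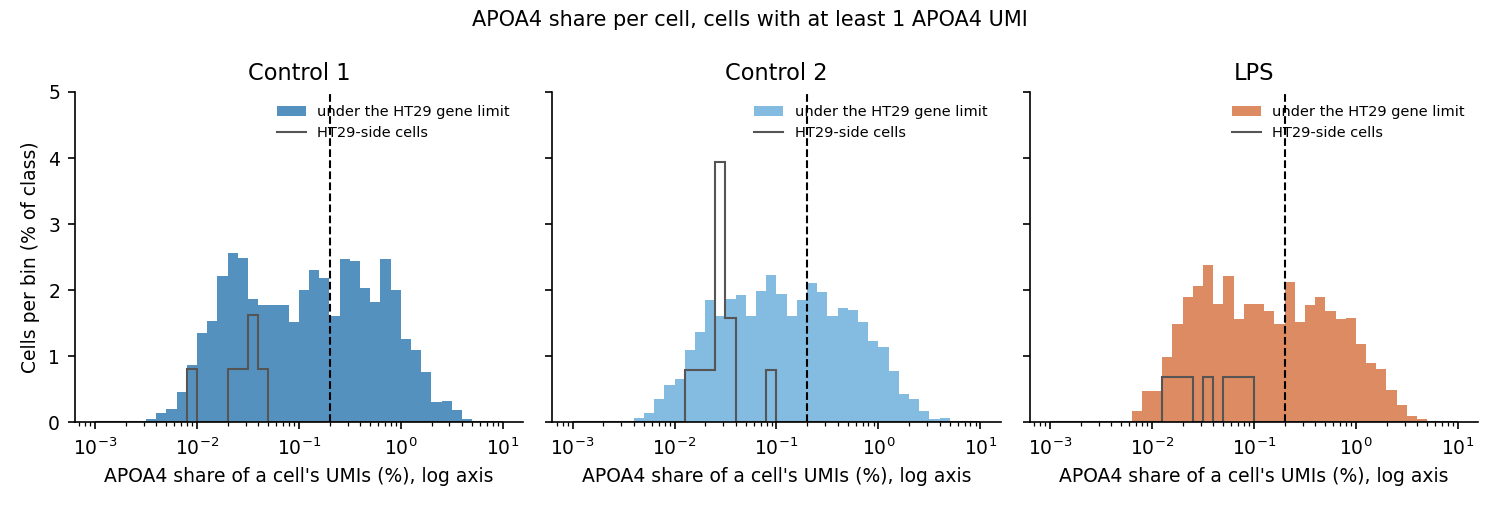
APOA4 share of each cell's UMIs (log axis, percent) for cells under the HT29 gene limit (filled) and HT29-side cells (outline) with at least 1 APOA4 UMI, as a percent of all cells of the class per bin, in each library. The dashed line marks 0.2%, which cuts a continuous spread, and no HT29-side cell lies to its right.

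In depth and quality the members resembled the cells they were compared with. Median UMIs were 5285, 4094 and 3672 in members and 5555, 4323 and 3636 in other cells of control 1, control 2 and the LPS library. Members held somewhat fewer genes, with medians of 1717, 1460 and 1380 against 1876.5, 1591.5 and 1427, in the same order. The median mitochondrial share was 3.62, 3.92 and 4.35% in members and 3.73, 4.40 and 4.62% in other cells. The highest 6% of doublet scores in a library took in 4.94, 3.98 and 6.39% of members. Between 9 and 11 cell barcodes occurred in any pair of libraries, none of them among the members of both, and no pair held the same profile.

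The other 6 markers of the label were all higher in members in every library, and the values of members and other cells did not overlap for any of them. FABP2 stood at 58.6, 37.6 and 34.5 CPM in members and at 3.84, 2.46 and 1.69 CPM in other cells of control 1, control 2 and the LPS library, a log2 fold change of 4.24 ± 0.13 (SE, edgeR fit over the 3 libraries). S100G stood at 181, 183 and 136 CPM against 18.4, 13.1 and 15.8 CPM, with no UMI in any HT29-side cell. GSTA1 was at 265, 177 and 130 CPM in members and 44.7, 21.2 and 22.3 CPM in other cells, so its level in control 1 was above that in the remaining libraries in both classes. GSTA1 and GSTA2 are close paralogues, and how reads shared between them were counted was not examined.

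RNF186 was nearly equal over libraries in members, at 86.2, 82.8 and 84.9 CPM, against 10.2, 7.32 and 6.44 CPM in other cells. SLC2A5 stood at 187, 287 and 357 CPM in members and 23.8, 26.8 and 29.9 CPM in other cells, and CUBN at 91.9, 57.7 and 82.5 CPM against 10.7, 6.09 and 6.12 CPM. The fitted log2 fold changes of these 5 markers ran from 2.93 for GSTA1 to 3.62 for S100G. They are given without p-values because the markers were taken up with earlier results of these data known.

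**Figure D2:**
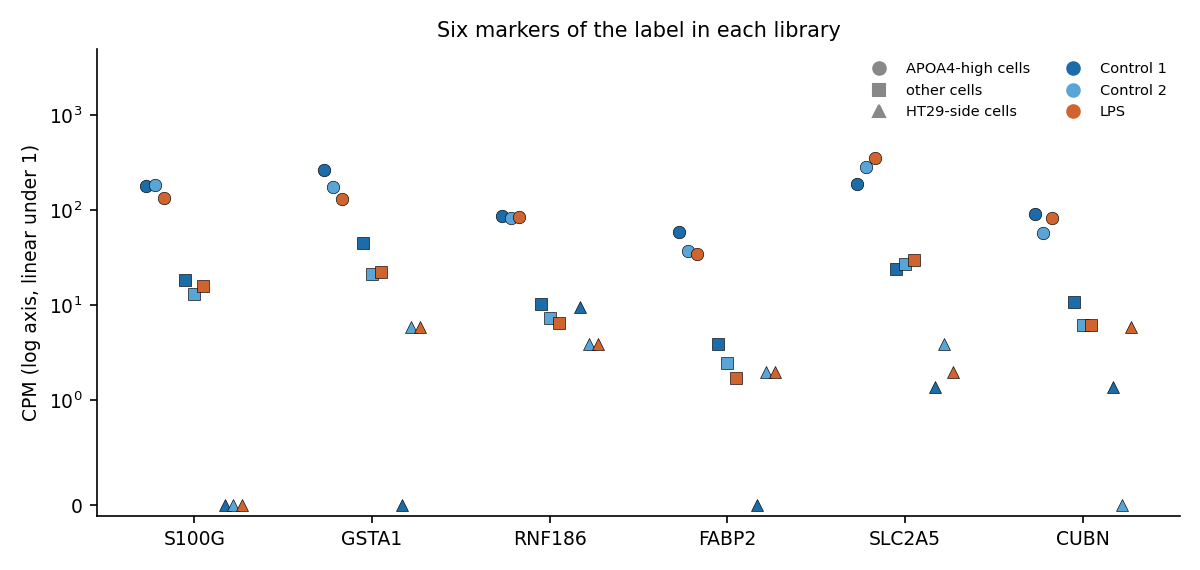
CPM (log axis, linear under 1) of the 6 markers other than APOA4, summed over APOA4-high cells (circles), other cells under the HT29 gene limit (squares) and HT29-side cells (triangles), 1 point per library. In each gene the 3 circles lie above the 3 squares.

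Few single cells showed several of these markers at once. With each cell thinned to 1500 UMIs, S100G was detected in 17.9, 16.6 and 16.2% of members, 2.24, 1.76 and 1.97% of other cells and 0% of HT29-side cells of control 1, control 2 and the LPS library. FABP2 was detected in 6.80, 4.78 and 4.90% of members and 0.575, 0.474 and 0.281% of other cells. In unthinned cells these shares were 23.4, 13.2 and 12.0% for FABP2 and 37.6, 29.5 and 26.2% for S100G in members, and 2.18, 1.14 and 0.675% for FABP2 and 6.09, 4.12 and 3.88% for S100G in other cells. The thinned member held a median of 1 of the 6 markers, and 40.9, 42.7 and 39.97% of members held none, compared with 88.6, 90.4 and 90.5% of other cells. At least 3 of the 6 were found in 8.16, 6.53 and 6.69% of members and in 0.575, 0.167 and 0.0844% of other cells. At this depth the markers separate the classes in sum and not cell by cell. The 123, 127 and 145 HT29-side cells allow a share of up to 2.44, 2.36 and 2.07% with a UMI at this depth where none was detected, which does not limit the share of cells expressing the gene.

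Across all 13650 genes that passed the filter on low counts, 3771 (27.6%) were higher and 3491 (25.6%) lower, 53.2% in all, in APOA4-high than in other cells at an adjusted p under 0.05 (edgeR quasi-likelihood test on the 6 sums, library as a term, Benjamini-Hochberg adjustment). With a change of at least 2-fold as well, a requirement added after the data were seen, 886 (6.49%) were higher and 1179 (8.64%) lower. Scaling mattered for the smaller changes. Without TMM scaling the median gene shifted from -0.01 to -0.22 on the log2 scale, and 2325 genes were called higher and 5164 lower, so the share of calls that were higher went from 51.9 to 31.0%. Counts of list members are therefore read against 27.6 and 25.6%, and changes that turn direction without scaling are named where they occur. Counts and medians of lists include the label's markers FABP2, CUBN, SLC2A5, GSTA1 and S100G in the lists they belong to. As the cells of a class were summed, more expressing cells and more RNA per cell cannot be told apart.

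Lipid export genes were higher in members, several of them 4-fold or more. Of 19 apolipoprotein and chylomicron assembly genes tested, 16 were higher and 2 lower (median log2 fold change 1.26, against -0.01 over all genes tested). APOC3, an apolipoprotein that slows the clearance of triglyceride-rich particles, stood at 9722, 11108 and 8971 CPM in members and at 2574, 2051 and 1872 CPM in other cells of control 1, control 2 and the LPS library. APOB, the structural protein of chylomicrons, was at 1248, 1110 and 1572 CPM against 317, 241 and 291 CPM. MTTP, which loads lipid onto APOB, was at 438, 443 and 507 CPM against 99.9, 72.0 and 75.4 CPM, a log2 fold change of 2.70 ± 0.06 (SE, edgeR adjusted p = 2.1e-73).

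The classes did not overlap in any of these 3 genes. MOGAT2, an acyltransferase of triglyceride resynthesis, had the largest fold of the list (log2 3.28 ± 0.24 SE) at only 10.9, 7.58 and 15.3 CPM in members. CREB3L3, a transcription factor that activates apolipoprotein genes, stood at 40.3, 39.6 and 48.4 CPM against 11.1, 9.61 and 10.7 CPM. APOA1, the major protein of high-density lipoprotein, changed less, from 5956, 4540 and 3827 CPM in other cells to 7653, 6280 and 5958 CPM in members (log2 fold change 0.70 ± 0.07 SE), and the lowest member value lay just above the highest other value. APOE, a ligand of lipoprotein receptors, did not pass the test at 2426, 2034 and 2051 CPM against 2433, 2382 and 2126 CPM (edgeR adjusted p = 0.095). The 2 genes lower in members were APOH, an apolipoprotein of plasma, and PLTP, the phospholipid transfer protein, which fell by 0.74 on the log2 scale.

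Among 18 tested genes of lipid and retinoid binding, uptake and esterification, 14 were higher and 0 lower (median log2 fold change 0.94), with 13 and 2 without scaling. RBP2, the retinol binding protein of enterocytes, stood at 1077, 499 and 518 CPM in members and 263, 130 and 103 CPM in other cells. Control 1 was the highest library in both classes, and within each library members were above other cells. FABP1, the liver-type fatty acid binding protein, was at 4873, 5207 and 4261 CPM against 2125, 1844 and 1773 CPM, with no overlap. The cholesterol uptake receptor NPC1L1 did not pass the test, at 6.51, 9.56 and 12.6 CPM in members and 10.3, 12.1 and 14.1 CPM in other cells. LRAT, which esterifies retinol, had the most negative value of the list at under 2 CPM throughout (edgeR adjusted p = 0.073), and ABCG5 had no UMI in members.

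Brush border genes differed in the same direction. Of 18 tested hydrolases and endocytic receptors, 16 were higher and 1 lower (median log2 fold change 1.87), and 14 were at least 2-fold higher. ENPP7, the alkaline sphingomyelinase, was at 29.4, 30.3 and 45.4 CPM in members and 5.37, 3.47 and 3.25 CPM in other cells. XPNPEP2, an aminopeptidase for bonds to proline, was at 43.0, 32.3 and 47.4 CPM against 8.04, 2.94 and 5.14 CPM.

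The classical hydrolases of absorptive cells were present at low levels. Sucrase-isomaltase, SI, stood at 29.2, 24.4 and 32.7 CPM against 15.3, 11.8 and 10.5 CPM, alkaline phosphatase ALPI at 26.0, 27.7 and 36.5 CPM against 9.00, 9.13 and 10.9 CPM, and lactase, LCT, at 7.498, 17.5 and 10.2 CPM against 2.23, 1.76 and 1.95 CPM. All 3 passed the test, and the members' lowest library lay above the other cells' highest for each. DPP4, a dipeptidyl peptidase, had the most UMIs of the list, at 227, 228 and 283 CPM against 184, 173 and 210 CPM. LRP2, the endocytic receptor megalin, was lower in members (log2 -0.63 ± 0.17 SE), while its partner CUBN was among the most raised. The log2 ratio of LRP2 before TMM scaling was -1.10 and -1.15 in the controls but only -0.12 in the LPS library. MME, the neutral endopeptidase of the brush border, had no UMI in members, and the hydrolase MEP1B had at most 0.341 CPM.

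All 17 tested genes of brush border structure were higher (median log2 fold change 0.96). CDHR5, a protocadherin that links neighbouring microvilli, stood at 385, 335 and 451 CPM in members and 72.9, 58.5 and 75.9 CPM in other cells, a log2 fold change of 2.71 ± 0.06 (SE). Its partner CDHR2 was at 26.4, 37.6 and 41.6 CPM against 7.03, 7.74 and 8.00 CPM, and the motor of the same complex, MYO7B, at 30.8, 36.6 and 47.1 CPM against 8.47, 6.73 and 8.59 CPM. Villin, VIL1, a core component of the microvillus, changed less than these 3 genes, at 199, 204 and 259 CPM against 127, 121 and 143 CPM. For ezrin, EZR, the call rested on the scaling. It stood at 145, 143 and 144 CPM in members and 149, 145 and 139 CPM in other cells, with a log2 fold change of 0.20 with TMM and -0.0012 without, and without scaling 15 of the 17 were higher.

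Fructose and glucose handling was raised unevenly. Of 14 tested genes of sugar transport and fructose breakdown, 10 were higher and 0 lower (median log2 fold change 1.79). Enzymes of the fructose route were among them, with ketohexokinase, KHK, at 33.0, 21.1 and 28.0 CPM in members against 11.6, 11.2 and 7.87 CPM in other cells and the triokinase TKFC at 117, 108 and 131 CPM against 42.9, 28.1 and 34.5 CPM. SLC5A1, the sodium-glucose cotransporter SGLT1, passed the test at only 3.16, 4.29 and 3.75 CPM in members.

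The glucose transporters SLC2A3 and SLC2A1 did not pass the test. SLC2A3 had the most UMIs of the list, at 419, 738 and 761 CPM in members and 573, 603 and 800 CPM in other cells, so control 1 lay below the remaining libraries in members. Peptide and amino acid carriers were mixed, with 6 of 12 tested higher and 2 lower (median log2 fold change 0.46), or 6 and 5 without scaling. The cystine transporter subunits SLC3A1 and SLC7A9 stood at 39.5, 36.3 and 42.3 CPM and at 25.4, 23.4 and 25.6 CPM in members, against 8.04, 7.91 and 7.68 CPM and 5.99, 4.43 and 5.46 CPM in other cells. SLC15A1, the peptide transporter PEPT1, was at 37.5, 69.2 and 73.3 CPM against 11.7, 13.9 and 17.7 CPM. SLC7A7, the most counted of the list, was at 306, 295 and 322 CPM against 150, 179 and 194 CPM, and SLC7A8 was lower (log2 -0.38 ± 0.15 SE).

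Bile acid and drug metabolism genes followed the same direction in 22 of 27 tested, with 2 lower (median log2 fold change 1.61). UGT2B17, a glucuronosyltransferase, stood at 34.5, 10.9 and 33.8 CPM in members and 2.75, 0.160 and 1.11 CPM in other cells. It has close paralogues, and how reads shared with them were counted was not examined. SULT1B1, a sulfotransferase, was at 45.8, 27.0 and 41.6 CPM against 7.91, 4.22 and 6.31 CPM. NR1H4, the bile acid receptor FXR, was at 17.2, 14.8 and 14.0 CPM against 4.06, 2.14 and 2.21 CPM, and both subunits of the bile acid exporter, SLC51A and SLC51B, were higher at log2 fold changes of 1.78 ± 0.08 and 1.79 ± 0.10 (SE). The apical bile acid transporter SLC10A2 was at or below 2.39 CPM and was not tested. CYP3A4, the main drug-oxidising enzyme of the adult small intestine, had no UMI in members or in other cells of any library. The alcohol dehydrogenase ADH6 was lower in members, at 1.58, 2.64 and 3.41 CPM against 10.2, 9.67 and 9.43 CPM.

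Mineral genes were read in separate lists, iron and zinc together and calcium apart. For iron, zinc and metallothionein genes, 11 of 16 tested were higher and 2 lower (median log2 fold change 0.63). SLC39A4, the zinc importer ZIP4, stood at 161, 172 and 190 CPM in members and 34.0, 24.5 and 25.3 CPM in other cells. SLC11A2, the iron importer DMT1, was at 758, 619 and 873 CPM against 223, 158 and 234 CPM, and the iron exporter SLC40A1 at 324, 341 and 431 CPM against 131, 151 and 168 CPM, with no overlap in any of the 3 genes. The iron reductase CYBRD1 was lower in members and at about 1 CPM there. FTL, the ferritin light chain and the most counted of the list, was called higher with a log2 fold change of 0.26 that did not pass without TMM scaling (0.06, edgeR adjusted p = 0.226).

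Of the calcium genes 4 of 10 could be tested. Higher were S100G, itself a marker of the label, and the manganese exporter SLC30A10. TRPV6, the apical calcium channel of enterocytes, had at most 0.330 CPM, and CYP24A1, a target of the vitamin D receptor, had no UMI at all. The receptor VDR itself did not pass the test, at 6.12, 5.28 and 4.09 CPM against 5.64, 5.98 and 5.01 CPM. In the chloride, sulfate and guanylin group 9 of 14 were higher and 3 lower (median log2 fold change 0.82). SLC26A3, the chloride-bicarbonate exchanger, was at 143, 110 and 151 CPM against 31.2, 17.8 and 20.1 CPM, and ATP1B1, a subunit of the sodium pump and the most counted of the group, at 549, 449 and 526 CPM against 225, 204 and 204 CPM. SLC12A2, the basolateral chloride importer of secreting cells, was lower, at 13.4, 13.2 and 17.4 CPM against 45.1, 40.1 and 51.6 CPM, and the chloride channel CFTR was lower by fit (log2 -0.46 ± 0.12 SE), although control 1 was nearly equal in the classes at 25.2 and 25.4 CPM.

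Intestinal transcription factors were higher in 12 of 17 tested and lower in 1 (median log2 fold change 0.51). MAF, a factor linked to enterocyte gene programmes, stood at 216, 166 and 229 CPM in members and 51.6, 33.8 and 44.2 CPM in other cells. HNF4A, a nuclear receptor that drives enterocyte genes, was at 189, 179 and 223 CPM against 128, 97.6 and 127 CPM, and the intestinal homeobox factor CDX2 at 129, 151 and 160 CPM against 86.8, 87.9 and 85.9 CPM. Without TMM scaling 9 were higher and 3 lower, with HNF4G and KLF5 among the calls lost and ELF3 and GATA6 called lower. FOXA2, an endoderm factor, was lower at 33.3, 34.6 and 41.3 CPM against 73.6, 76.9 and 82.0 CPM. GATA4, a factor of proximal small intestine, stood at no more than 0.801 CPM in either class, and GATA6 did not pass the test with TMM scaling at 40.1, 40.9 and 46.0 CPM against 54.7, 53.5 and 56.2 CPM.

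Zonation markers did not move as a set. Of 9 tested villus tip genes 5 were higher and 2 lower, and the lower ones were ADA, adenosine deaminase, and PMP22. The most counted villus tip gene, the immediate early factor FOS, was at 719, 674 and 579 CPM in members and 675, 581 and 521 CPM in other cells. Of the villus base genes 3 of 10 could be tested. REG4, a secreted lectin, was lower at 3.16, 3.30 and 5.80 CPM against 19.1, 24.8 and 24.5 CPM, REG1A was lower at under 3 CPM, and the cytokine IL18 was higher at 72.0, 64.6 and 60.7 CPM against 43.6, 58.6 and 54.8 CPM. Genes that mark colonocytes were higher in 5 of 7 tested and lower in 1 (median log2 fold change 1.24), among them SLC26A3, the water channel AQP8 at 2.76, 1.32 and 1.02 CPM and the guanylate cyclase ligand GUCA2A at 121, 69.6 and 80.5 CPM in members against 31.5, 18.3 and 20.8 CPM. MS4A12 and CA4, which mark mature colonocytes, had no UMI in members.

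**Figure D3:**
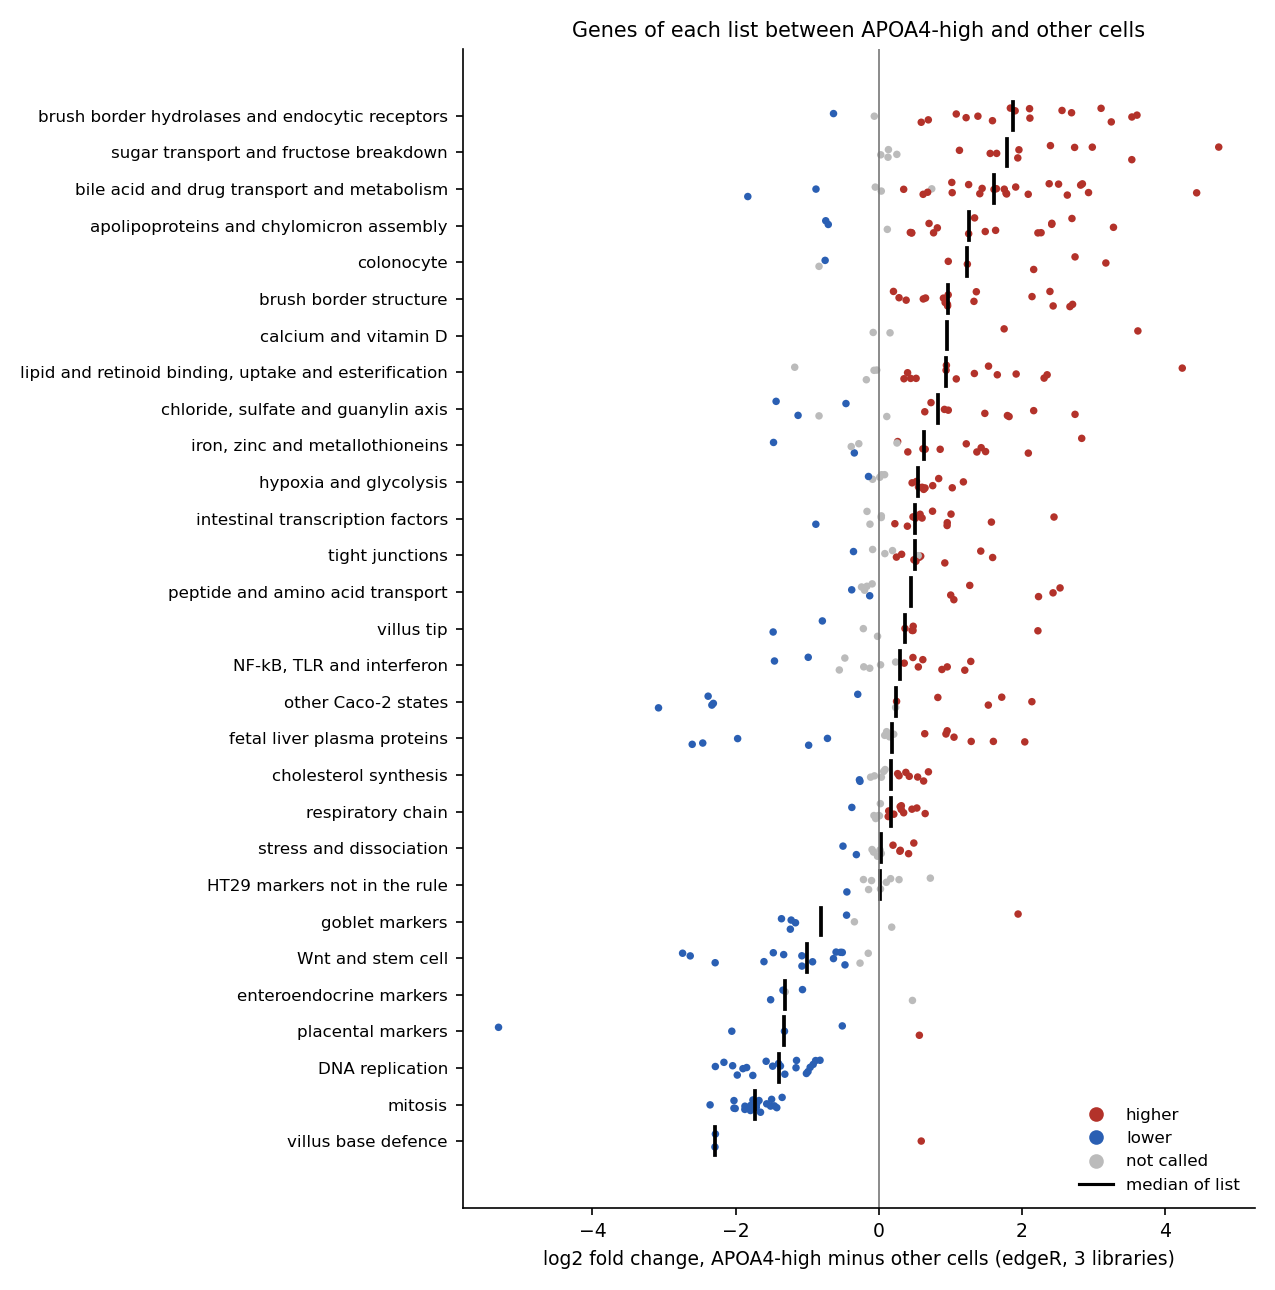
Log2 fold change between APOA4-high and other cells (edgeR over 3 libraries) for the tested genes of each gene list. The list of the label's markers is left out. Genes called higher are in red, lower in blue and not called in grey, with the list's median as a black bar. Medians run from 1.87 for hydrolases to -1.73 for mitosis and -2.28 for the 3 villus base genes.

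Cell cycle genes were lower in members without exception. All 20 DNA replication genes and all 20 mitosis genes tested were lower, with median log2 fold changes of -1.39 and -1.73, and all 40 kept this call without TMM scaling. TOP2A, the topoisomerase of dividing cells, stood at 63.3, 78.5 and 80.5 CPM in members and 295, 387 and 369 CPM in other cells of control 1, control 2 and the LPS library. UBE2C, the most counted of the mitosis list, was at 96.7, 106 and 86.0 CPM against 318, 385 and 294 CPM. CENPF, a kinetochore protein, was lowest by fold at 27.4, 30.0 and 38.9 CPM against 181, 209 and 176 CPM (log2 -2.36 ± 0.08 SE).

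Cells holding several cell cycle transcripts were scarcer among members. Doublets were not removed and free RNA was not estimated, and their part in the shares of members was not tested. With cells thinned to 1500 UMIs, at least 3 UMIs of the mitosis list were found in 5.07% (41 cells), 7.96% (50 cells) and 7.13% (48 cells) of members and in 24.2, 28.7 and 29.0% of other cells of control 1, control 2 and the LPS library. For the replication list the shares were 2.97, 1.43 and 3.57% in members and 10.9, 10.4 and 12.1% in other cells. The exact binomial intervals of members and other cells were apart in every library.

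**Figure D4:**
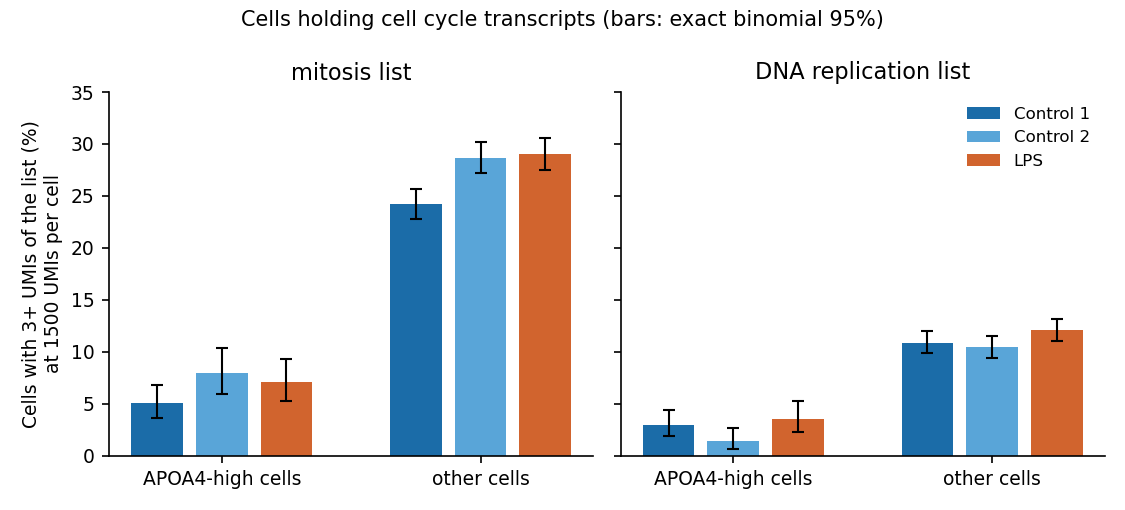
Percent of APOA4-high and of other cells with at least 3 UMIs of the mitosis list (left) or of the DNA replication list (right) after thinning to 1500 UMIs per cell, 1 bar per library from 0, with exact binomial 95% intervals that cover counting error only. All member bars lie at 7.96% or below and all other bars at 10.4% or above.

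Wnt and stem cell genes were lower in 14 of 16 tested and higher in 0 (median log2 fold change -0.999). PLA2G2A, a secreted phospholipase known from the crypt, stood at 5.52, 9.56 and 14.0 CPM in members and 58.4, 68.9 and 70.3 CPM in other cells. LGR5, the receptor that marks intestinal stem cells, was at 0.592, 0 and 1.71 CPM against 6.95, 4.43 and 5.07 CPM. The cyclin CCND1, the most counted of the list, was at 97.5, 80.1 and 121 CPM against 174, 160 and 188 CPM, and OLFM4 had no UMI in members. The growth inhibitor LRIG1 and the Wnt antagonist NKD1 did not pass the test, and LRIG1 was at 10.9, 12.5 and 14.3 CPM against 15.2, 14.9 and 17.8 CPM.

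Genes were ranked by fold among all those called, with at least 20 CPM in the higher class and the same direction in every library. The 15 with the highest fold included the label's 6 markers, ENPP7 and XPNPEP2. TNFSF10, the death ligand TRAIL, stood at 46.0, 55.4 and 52.5 CPM in members and 6.38, 5.93 and 6.77 CPM in other cells (log2 fold change 3.21 ± 0.11 SE, edgeR adjusted p = 2.4e-54). In HT29-side cells TNFSF10 was at 36.7, 58.6 and 85.6 CPM. SUSD2, a membrane protein, was at 82.1, 101 and 143 CPM against 10.9, 13.8 and 17.2 CPM. LOX, the lysyl oxidase that cross-links collagen, was at 93.3, 94.0 and 148 CPM against 17.3, 14.6 and 18.8 CPM. Also among them were the long non-coding RNAs AC087482.1, on chromosome 15, at 30.0, 46.5 and 40.6 CPM in members, and AL365181.4, on chromosome 1, at 24.7, 24.4 and 25.2 CPM.

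The 15 with the lowest fold included CENPF and the mitotic kinesin KIF23. DKK1, a secreted Wnt antagonist, stood at 2.96, 14.5 and 7.504 CPM in members and 76.8, 67.2 and 73.8 CPM in other cells (log2 fold change -3.08 ± 0.14 SE, edgeR adjusted p = 8.7e-43). IGDCC3, an immunoglobulin family membrane protein, fell by 2.49 on the log2 scale, and ITIH2, a heavy chain of a plasma protease inhibitor, by 2.46. The neuropeptide galanin, GAL, was at 7.10, 8.24 and 6.82 CPM against 39.5, 56.5 and 41.2 CPM, and the fatty acid binding protein FABP5 at 12.4, 17.8 and 14.3 CPM against 74.0, 87.5 and 62.5 CPM. The others were PLA2G2A, CDCA7, ANKRD1, FOXQ1, EMP2, SLC7A2, TUBB2B and MSMB, with log2 fold changes from -2.63 to -2.06. In none of the 30 genes did members and other cells overlap, and the 30 kept their call and direction under each of the 18 alternatives run for them. The 30 were picked from these data for large folds in the same direction in every library, so neither result is separate support.

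Members shared other transcript states unevenly. GNRH2, which encodes a gonadotropin-releasing hormone and marked a Caco-2 state in these libraries, stood at 1494, 1834 and 1807 CPM in members and 334, 538 and 504 CPM in other cells. At 0.2% of a cell's UMIs or more, GNRH2 was reached by 24.1, 29.0 and 27.5% of members and by 4.86, 8.501 and 7.54% of other cells. Within the members, the 195, 182 and 185 cells at or over this level and the 614, 446 and 488 cells under it had APOA4 at 7467, 7934 and 8953 CPM and at 7278, 6734 and 6778 CPM. FABP2 was at 45.0, 27.3 and 36.6 CPM at or over it and at 62.7, 41.5 and 33.7 CPM under it, so the order was the same in the controls and not in the LPS library.

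GSTA1 was lower where GNRH2 was high in each library, at 149, 135 and 101 CPM against 299.9, 194 and 140 CPM. The reverse held for SLC2A5, at 215, 393 and 470 CPM against 179, 246 and 317 CPM. These are descriptions of cells grouped by a measured gene and carry no test.

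Plasma protein genes that fetal liver and Caco-2 cells express split in 2 directions, with 7 of 16 tested higher and 5 lower (median log2 fold change 0.18, or -0.03 without scaling). TTR, the thyroxine carrier transthyretin, stood at 1029, 891 and 897 CPM in members and 297, 253 and 245 CPM in other cells. AFP, alpha-fetoprotein, was at 626, 403 and 752 CPM against 309, 216 and 306 CPM, and SERPINA1, the most counted of the list, at 2724, 2584 and 2591 CPM against 1659, 1549 and 1516 CPM. Albumin, ALB, was lower at 149, 177 and 236 CPM against 336, 336 and 380 CPM, and the acute phase protein ORM1 was lower at 0.789, 1.32 and 3.07 CPM against 9.13, 11.1 and 13.9 CPM.

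AFP reached 0.2% of UMIs in 7.54, 4.46 and 7.58% of members and in 3.42, 2.45 and 4.30% of other cells. ALB reached it in 0.989, 1.43 and 1.63% of members and in 2.99, 3.46 and 3.63% of other cells. Of the trefoil factors, which protect the mucosal surface, TFF1 and TFF2 were higher in members, with TFF1 at 861, 733 and 648 CPM against 354, 260 and 288 CPM. TFF3 was nearly equal at 1151, 1044 and 839 CPM against 1232, 948 and 800 CPM, and its call as higher was lost without scaling.

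Markers of other cell types that could be mixed in ranged from near 0 to levels close to those of HT29-side cells. Of 18 HT29 markers outside the rule 9 could be tested, with 0 higher and 1, TIMP1, lower (log2 fold change -0.45). That call was lost with DESeq2, without control 1 and without the replicate block, and its direction turned with members set at 0.1% or more APOA4 (0.11). Their summed level was 37.9, 74.9 and 41.6 CPM in members, 58.1, 82.1 and 58.3 CPM in other cells and 3230, 2742 and 2564 CPM in HT29-side cells. KRT20, a keratin of differentiated intestinal cells and 1 of the 8 genes of the rule, stood at 44.4, 34.6 and 31.7 CPM in members, 18.6, 12.4 and 11.4 CPM in other cells and 1076, 1022 and 1025 CPM in HT29-side cells. LYZ, the most counted of those 8 in HT29-side cells (2958, 3338 and 3068 CPM), was at 21.3, 26.7 and 11.6 CPM in members and 33.8, 31.6 and 24.7 CPM in other cells. The limits of 0.1% and 0.5% set the gap to HT29-side cells in advance for these 8 genes. The rule also left out any Caco-2 cell whose KRT20 took it past the limit, and the part of this was not tested. Of 8 tested goblet markers 1 was higher and 5 lower, with MUC2, the main goblet mucin, at 0.986, 3.96 and 0.682 CPM in members and CLCA1 at 0. The 1 that was higher, ZG16, a lectin of goblet granules, stood at 279, 301 and 232 CPM against 83.7, 84.4 and 76.6 CPM, while AGR2, the most counted, was lower at 651, 778 and 735 CPM against 1063, 1216 and 1142 CPM. The summed goblet level was 957, 1127 and 1023 CPM in members, 1199, 1396 and 1296 CPM in other cells and 1026, 1413 and 1422 CPM in HT29-side cells. This sum was not low in members, but most of it was AGR2 and much of the rest ZG16.

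Of 5 tested enteroendocrine markers 0 were higher and 3 lower, and NEUROD1 and NEUROG3 had no UMI in members. Their summed level was 10.9, 12.2 and 10.2 CPM in members and 24.9, 19.4 and 69.5 CPM in other cells. Of 5 tested placental markers TFAP2C was higher, a call lost without scaling, and 4 were lower. Of these 5, GATA3 was the most counted at 12.6, 17.8 and 19.8 CPM in members and 23.8, 33.5 and 24.1 CPM in other cells.

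Tight junction genes were higher in 9 of 14 tested and lower in 1 (median log2 fold change 0.50), a count of 7 and 2 without scaling. CLDN15, a pore-forming claudin of the small intestine, stood at 68.9, 75.2 and 61.4 CPM in members and 29.2, 28.5 and 31.8 CPM in other cells, and CLDN1 was lower at 77.7, 59.7 and 67.9 CPM against 112, 93.3 and 101 CPM. Hypoxia and glycolysis genes were higher in 10 of 15 and lower in 1, with LDHA, the lactate dehydrogenase, at 1517, 1468 and 1242 CPM against 1129, 932 and 854 CPM. Within that list VEGFA was lower, and CA9, a strict hypoxia target, did not pass the test at 5.13, 10.6 and 8.87 CPM against 6.86, 10.4 and 10.4 CPM.

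For the respiratory chain and stress lists the balance of higher and lower genes rested on the scaling. Respiratory chain genes were 10 higher and 1 lower of 16 with TMM and 3 higher and 6 lower without it, with NDUFA4 and ATP5PO changing sign. Stress and dissociation genes were 5 higher and 2 lower of 12 with TMM and 1 higher and 6 lower without, with HSPA1A changing sign. Cholesterol synthesis genes were 7 higher and 2 lower of 14 with TMM and 5 and 4 without. Of 16 tested NF-kB, Toll-like receptor and interferon genes 8 were higher and 2 lower (6 and 4 without scaling), with the interferon-induced IFI27 at 136, 175 and 108 CPM against 58.0, 81.9 and 61.8 CPM.

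Levels followed APOA4 beyond the cut. Cells under the HT29 gene limit were placed in 7 bins of APOA4 share per library, and the 10 genes with the closest rank order to APOA4 over these 21 points, among 2059 genes with at least 50 CPM in members, were CDHR5, RNF186, CYP27A1, MUC13, VTN, MTTP, APOC3, MAF, APOB and SERPINA1 (Spearman rho from 0.988 to 0.979). The points share libraries, and all are sums of the cells that APOA4 ordered, so this is a description. FABP2 stood at 0.828 ± 0.325 CPM (mean ± SD over 3 libraries) in cells with no APOA4 UMI, at 12.8 ± 7.33 CPM from 0.1 to 0.2%, at 19.6 ± 7.58 CPM from 0.2 to 0.5% and at 80.7 ± 22.1 CPM at 1% and more. In control 2 it did not rise across the cut, at 12.5 CPM from 0.1 to 0.2% and 11.7 CPM from 0.2 to 0.5%. S100G went from 5.94 ± 1.91 CPM with no APOA4 to 66.8 ± 0.853 CPM from 0.1 to 0.2% and 244 ± 36.7 CPM at 1% and more. Close to the cut its order was not even, with 65.6, 55.7 and 46.6 CPM just outside it and 178, 44.6 and 28.6 CPM just inside it in control 1, control 2 and the LPS library, so cells just inside were lower in control 2 and the LPS library.

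TOP2A went the other way, from 378 ± 62.6 CPM with no APOA4 through 171 ± 39.5 CPM from 0.1 to 0.2% to 20.6 ± 3.57 CPM at 1% and more. Cells from 0.1 to 0.2% thus held values between the extremes for these 3 genes. APOA1 stood at 4544 ± 1059 CPM with no APOA4, 5287 ± 853 CPM from 0.1 to 0.2% and 8238 ± 782 CPM at 1% and more, and AFP at 1% and more ranged from 409 CPM in control 2 to 1510 CPM in the LPS library.

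**Figure D5:**
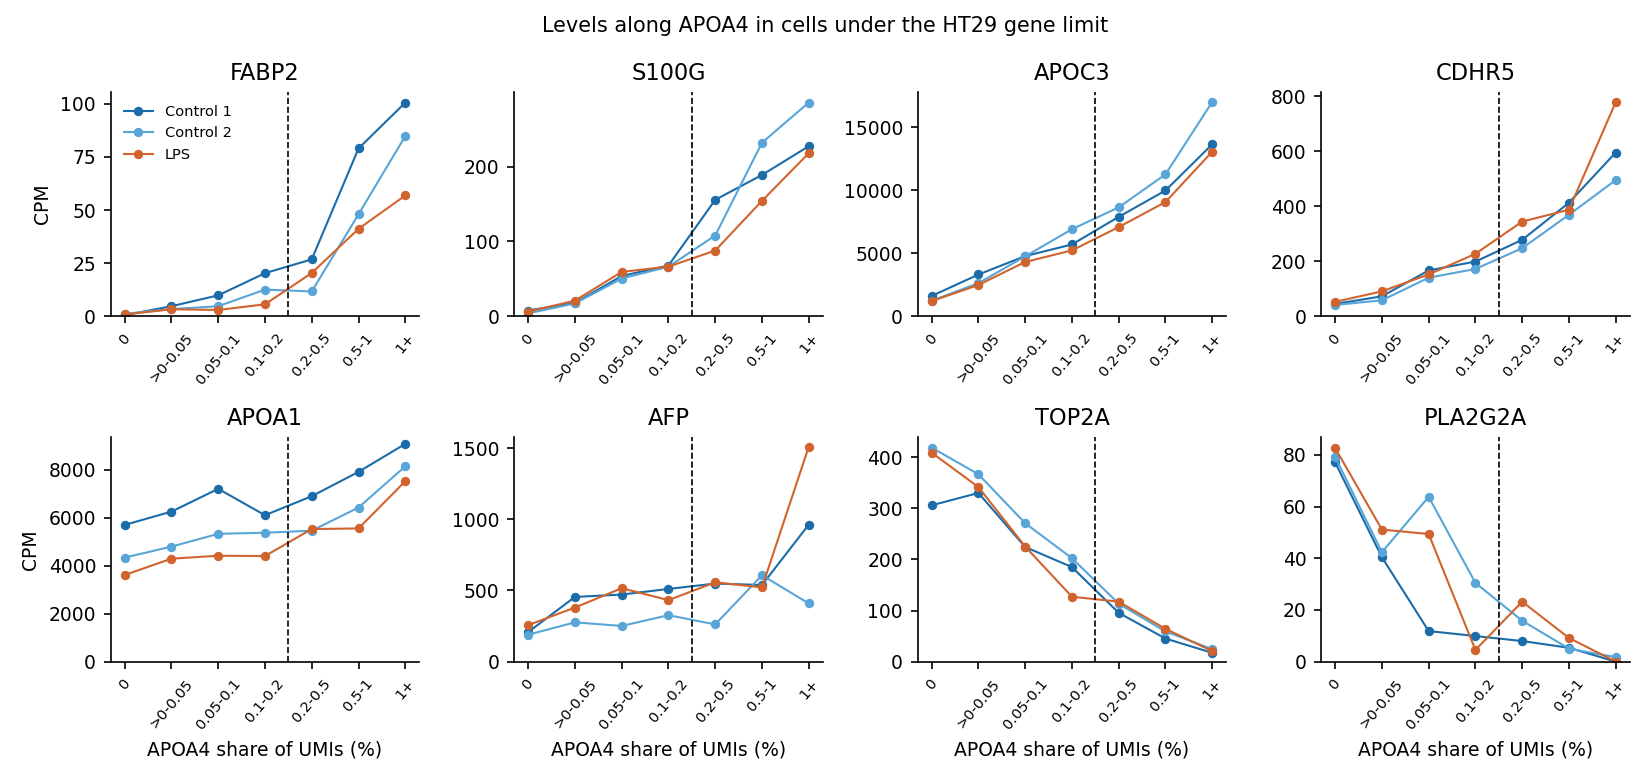
CPM of 8 genes in cells under the HT29 gene limit, binned by the APOA4 share of their UMIs (percent), 1 line per library, with the dashed line at the 0.2% cut. In every library FABP2, S100G, APOC3 and CDHR5 are higher in the last bin than in the first and TOP2A and PLA2G2A lower, with single steps the other way for FABP2, TOP2A and PLA2G2A, and AFP differs between libraries in the last bin.

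Few genes of the APOA4-high cells stood apart in the LPS library by fold, and with 1 such library the comparison had no replicate check and was not tested. Of 5278 genes at 20 CPM or more in the LPS library or in both controls, 1 (0.0189%) was at least 2-fold above both controls and 1 (0.0189%) at least 2-fold below both. In other cells the counts were 1 (0.0179%) and 1 (0.0179%) of 5585, and none of these genes was shared between the classes. With an HT29 gene limit of 0.05% or 0.2%, or at 50 CPM or more, 0 genes of members were past 2-fold on either side. ZNF90, a zinc finger gene with many close paralogues, stood at 8.09 and 5.28 CPM in the controls and 20.1 CPM in the LPS library (59 UMIs). IGFL2-AS1, an antisense RNA, was at 20.1 and 21.4 CPM in the controls and 9.55 CPM with LPS (28 UMIs). Whether reads of its partner gene entered this count was not examined. In HT29-side cells IGFL2-AS1 was far higher, at 899 and 553 CPM in the controls and 483 CPM with LPS, and their part in the low values of members was not tested.

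At 1.5-fold from both controls 59 genes (1.12%) were higher and 5 (0.0947%) lower in members, against 2 (0.0358%) and 3 (0.0537%) in other cells. The members' sums held 5068343, 3032712 and 2931792 UMIs in control 1, control 2 and the LPS library and the other cells' 22892270, 18722312 and 15371582, and the part of this depth in the counts was not tested. None of the genes judged in any list was 2-fold from both controls, among them the 6 of the NF-kB, Toll-like receptor and interferon list. TLR4, the LPS receptor, and its partner LY96 stood at no more than 0.341 CPM in members of any library. The NF-kB inhibitor NFKBIA, itself a target of the pathway, was at 28.4, 27.7 and 27.6 CPM in control 1, control 2 and the LPS library. With 1 LPS library taken after 24 h, whether the pathway had been active was not tested. Between the 2 controls, 15 genes were at least 2-fold higher in control 2 and 12 lower, of 5155 at 20 CPM or more in either (0.524%). From control 1 to the LPS library the counts were 19 and 8 of 5349 (0.505%), and from control 2 to the LPS library 8 and 5 of 5402 (0.241%).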

How the data were processed

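The matrices, as deposited by the authors, hold UMI counts per gene and barcode without normalization, made by Cell Ranger 3.1.0 (per the file headers) on GRCh38. They hold 5811, 6495 and 6838 barcodes with 33893707, 27934953 and 24185467 UMIs in control 1, control 2 and the LPS library. Controls are labelled as replicates, and p-values rest on the spread between these 3 libraries only, which may be technical. The fit pools that spread over genes, so a printed SE or p-value does not measure a single gene's own spread. For DKK1 the log2 ratios before TMM scaling were -4.30, -2.14 and -3.14 in control 1, control 2 and the LPS library. Its printed SE was 0.14. The members and the gene lists were chosen with earlier results of these data known.

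UMIs were summed per library and class (6 sums), the 9 rule genes were left out, and edgeR 4.0.16 in R 4.3.3 fitted library and class by the quasi-likelihood test, with TMM scaling, its filter on low counts and Benjamini-Hochberg adjustment at 0.05. Both classes of a library come from the same culture, which pairs them. Tested on simulated data for this comparison (13650 genes, 200 changed), the fit recovered 80% of 2-fold and 97% of 4-fold changes, with 2.21% of calls false. In the real data 7262 genes (53.2%) were called, far more than the 200 changed there. The share of false calls with so many genes changed was not tested. LPS was compared by fold alone, at 2-fold from both controls and 20 CPM, as log2 of CPM plus 1. Named were the 15 genes highest and 15 lowest by fold among called genes at 20 CPM with the same direction in every library. Also named were each list's most counted and most changed genes, up to 8 LPS genes a side and the 10 genes most like APOA4. Some genes that this rule names and some of the motifs searched are not reported here. Other list members were picked for their role after their values were seen. Doublets were scored with Scrublet in scanpy 1.11.5, whose automatic threshold marked 0, 0 and 1 cells and so did not work. None were removed except in an alternative. Python 3.11.15 and scipy 1.17.1 were used for shares, and 22 planned and 2 added alternatives were run. Cells thinned to 1500 UMIs used a fixed seed.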

Additional observations from a re-analysis of the deposited data

How the results depend on the processing

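Depth limits the single-cell shares and the genes near 1 CPM, and library and culture cannot be told apart. Fold changes of called genes held best for large changes. Of 323 named or listed genes, 255 kept call and direction under all 18 alternatives, including the 30 picked for their large folds. The cause of the changes below was not tested.

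The member share was 25.4, 20.3 and 20.9% in control 1, control 2 and the LPS library with APOA4 at 0.1% or more, 12.3, 9.16 and 10.5% at 0.4% or more, and 20.3 and 16.0% in the controls with the classes set in cells thinned to 1500 UMIs.

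Genes higher numbered 2314 and genes lower 1988 with thinned cells, where fewer UMIs were summed, 2638 and 2085 with DESeq2 1.42.0, and 886 and 1179 with a 2-fold minimum. Without TMM scaling, an alternative chosen after seeing the data, 2325 were higher and 5164 lower, and with no filter on low counts 3201 and 3834. Leaving out each library in turn gave 3138 to 3326 higher and 2734 to 3203 lower. Without the library as a replicate block 2835 were higher and 2603 lower, and of the named or listed genes 46 lost their call and none changed sign.

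Direction turned in 6 cases, none of them past the threshold. Without TMM scaling the log2 fold change was -0.0012 for EZR, -0.065 for NDUFA4, -0.076 for ATP5PO and -0.0100 for HSPA1A. It was 0.11 for TIMP1 with APOA4 at 0.1% or more and -0.0105 for IFI6 with an HT29 gene limit of 0.2%.

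For LPS in members, 3 genes were 2-fold higher with APOA4 at 0.4% or more and 2 with 3000 UMIs and 1000 genes. With the highest 6% of doublet scores removed 2 were higher and 0 lower. With an HT29 gene limit of 0.05% or 0.2%, or at 50 CPM or more, 0 were higher and 0 lower. At 1.5-fold 59 were higher and 5 lower. Against a single control the counts were 8 to 19 higher and 5 to 8 lower, so the small counts rest on requiring both: 8 and 5 without control 1, 19 and 8 without control 2. No paired analysis was possible because there was 1 LPS library and the labels pair it with neither control.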
